A study of Mus musculus with 74 samples.

Results

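The fragments described here were short pieces from the middle of *mt-TR*, the mitochondrial transfer RNA that reads arginine codons with the anticodon TCG, written here in DNA letters. They were chosen by position alone. Each is an exact part of mature *mt-TR* of C mtDNA, starts at position 25 to 31, is 15 to 29 nt long and ends at position 68 or before, with positions counted from 1 at the 5′ end. By this rule 91 of the 500 sequences in the table were members. They held 1205 of the 5606 *mt-TR* reads, or 21.5% (95% Wilson interval 20.4 to 22.6, counting error only). The rule allowed 105 sequences, of which 14 had no read.

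Small RNA from the lungs of mice was sequenced without pretreatment, in 74 libraries. CC (C57BL/6J), HH (C3H/HeN) and FF (FVB/NJ) are wild-type strains. HC, CH and CF are mitochondrial–nuclear exchange (MNX) strains, whose nuclear genome comes from the strain of the first letter and whose mtDNA comes from the strain of the second letter. HC therefore carries C3H/HeN nuclei with C57BL/6J mtDNA, CH carries C57BL/6J nuclei with C3H/HeN mtDNA, and CF carries C57BL/6J nuclei with FVB/NJ mtDNA. All animals were untreated healthy adults of 5 to 15 weeks. MNX lines were made by pronuclear transfer and bred in-house, while wild-type mice were bought from vendors, so breeding source and MNX status cannot be told apart. There were 12 libraries of each genotype, except 13 of CH and 13 of HC, from both sexes. The extraction protocol describes pooling of RNA samples, and the labels do not say how many animals each library holds, so p-values measure the spread between libraries.

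In a transfer RNA, the anticodon sits in a loop closed by a short stem, and the T arm, a second stem and loop, lies toward the 3′ end. Endonucleases that cut in single-stranded loops release pieces of transfer RNA of various lengths, and an internal piece that carries neither end of the molecule is called an i-tRF. In mouse *mt-TR* the mtDNA types differ within a run of T and A upstream of the anticodon stem. Every member lies 3′ of that run, so that its sequence is the same in all 3 mtDNA types.

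*mt-TR* is annotated in GRCm38 (mm10) at chrM:9808-9875 on the + strand, a transfer RNA gene without introns. The mature molecule of C mtDNA is shown first, with CCA added at its 3′ end, because all positions refer to it. The anticodon (positions 31 to 33, chrM:9838-9840) is in capitals.

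mature mt-TR, C mtDNA: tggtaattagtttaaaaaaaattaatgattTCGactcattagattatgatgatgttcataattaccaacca

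On this sequence the 5′ strand of the anticodon stem spans 24 to 28, the anticodon loop 29 to 35, the 3′ strand 36 to 40, and the variable region 41 to 44. The T arm follows, with its 5′ strand at 45 to 49, its loop at 50 to 55 and its 3′ strand at 56 to 60. All 5 pairs of the anticodon stem and all 5 of the T stem can form in this sequence.

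The 8 members with the most reads are shown next, because the preferred starts and ends described below are seen in them. Capitals again mark the anticodon.

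from 31 to 55 (chrM:9838-9862): TCGactcattagattatgatgatgt
from 25 to 52 (chrM:9832-9859): atgattTCGactcattagattatgatga
from 25 to 44 (chrM:9832-9851): atgattTCGactcattagat
from 31 to 54 (chrM:9838-9861): TCGactcattagattatgatgatg
from 27 to 48 (chrM:9834-9855): gattTCGactcattagattatg
from 25 to 46 (chrM:9832-9853): atgattTCGactcattagatta
from 27 to 53 (chrM:9834-9860): gattTCGactcattagattatgatgat
from 27 to 54 (chrM:9834-9861): gattTCGactcattagattatgatgatg

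For starts 26, 28, 29 and 30, the member with the most reads is given for comparison.

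from 26 to 51 (chrM:9833-9858): tgattTCGactcattagattatgatg
from 28 to 48 (chrM:9835-9855): attTCGactcattagattatg
from 29 to 55 (chrM:9836-9862): ttTCGactcattagattatgatgatgt
from 30 to 55 (chrM:9837-9862): tTCGactcattagattatgatgatgt

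These sequences differ only in how much of the anticodon stem they keep at the 5′ end and in how far they run into the T arm. None of the 91 members matched another of the 141767 annotated mouse transcripts searched. The table covered *mt-TR* alone, so the total depth of the libraries was not known and lung marker genes could not be examined. Libraries held 0 to 1280 *mt-TR* reads (median 35), and 3 libraries held none. Member reads were found in 64 of the 71 libraries with reads. HC male replicate 3 stood apart with 1280 *mt-TR* reads, against 334 in the next library, and it gave 258 of the 1205 member reads (21.4%), so pooled values are also given without it. Members made 20.2% of its *mt-TR* reads, and 21.9% of all reads in the other libraries.

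Starts of the members were not spread evenly over positions 25 to 31. Position 25 began 389 reads (32.3%) and position 27 began 360 (29.9%), both within the 5′ strand of the anticodon stem. Position 31, the first base of the anticodon, began 169 reads (14.0%). Between these lay positions with few reads, with 48 at 26, 78 at 28, 75 at 29 and 86 at 30. Starts 25, 27 and 31 together made 76.2% of the member reads (Wilson 73.7 to 78.5), and 74.7% without HC male replicate 3. Starts in the stem (25 to 28) made 72.6% and starts in the loop (29 to 31) made 27.4%. The fragments just outside the rule had 772 reads at start 24 and 66 reads at start 32, at the same lengths, so that a larger group of short fragments began 1 nt upstream.

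Single libraries varied around this profile. In the 45 libraries with at least 5 member reads, start 25 made 32.2% ± 21.5 of the member reads (mean ± SD, n = 45), start 27 made 29.5% ± 23.0 and start 31 made 15.0% ± 16.0. Start 26 made 5.16% ± 7.48, start 28 made 6.61% ± 7.95, start 29 made 5.89% ± 7.90 and start 30 made 5.61% ± 8.69. Starts 25, 27 and 31 therefore had higher means than the positions between them, although the spread between libraries was large. As a description of the same libraries, with no test, start 25 had a larger share than start 26 in 39 libraries and a smaller one in 2, with a mean difference of 27.03 percentage points. Start 27 was above start 26 in 35 libraries and below it in 5 (mean difference 24.3 points), and above start 28 in 35 and below it in 4 (22.9 points). Start 31 was above start 30 in 29 libraries and below it in 10 (9.43 points). The other libraries were tied.

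Start 25 led in 20 of the 45 libraries, start 27 in 11, start 31 in 6 and start 28 in 1, while 7 libraries had a tie. In HC male replicate 3, starts 25 and 27 were nearly equal, with 94 and 93 of its 258 member reads. In HH female replicate 5, the library with the next most member reads, start 25 had 29 of 71 reads and start 27 had 21. Other libraries leaned to one position. CF female replicate 6 had 11 of 16 reads at start 27 and 0 at start 25, and CH female replicate 2 had 10 of 15 at start 27 and 0 at start 25. CH male replicate 6 had 9 of 11 at start 25 and 0 at start 27. The libraries led by start 31 were CF male replicate 1 (9 of 21 reads), CF male replicate 2 (6 of 16), CH male replicate 5 (4 of 11), HC female replicate 6 (8 of 17), HC male replicate 1 (22 of 36) and HH male replicate 6 (14 of 27). They came from 4 genotypes and both sexes. HC female replicate 4 was the library led by start 28, with 5 of 21 reads.

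By genotype, start 25 made 32.7% of member reads in CC, 23.5% in CF, 32.8% in CH, 37.5% in FF, 34.5% in HC and 32.3% in HH. Start 27 made 26.5% in CC, 28.3% in CF, 36.2% in CH, 41.7% in FF, 29.3% in HC and 30.2% in HH. Start 31 made 13.6% in CC, 22.9% in CF, 11.2% in CH, 4.17% in FF, 13.5% in HC and 11.1% in HH. Starts 25 and 27 were thus the most used positions in every genotype, although in CF start 25 had 39 reads and start 31 had 38. In HC, HC male replicate 3 gave 94 of the 194 reads at start 25 and 93 of the 165 at start 27. The FF values rest on 24 member reads in 8 libraries. Of the 76 reads at start 31 in HC, 22 came from HC male replicate 1, and of the 21 in HH, 14 came from HH male replicate 6. Start 30 made 14.3% of member reads in HH (27 reads, of which 12 were in HH female replicate 5 and 7 in HH female replicate 6) and between 0 and 7.46% in the other genotypes.

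The share of member reads that began in the anticodon stem was compared between genotypes over the 45 libraries. Its lowest, median and highest values were 42.9, 72 and 91.7% in CC (n = 7), 37.5, 62.5 and 100% in CF (n = 11), 63.6, 83.8 and 100% in CH (n = 8), 38.9, 75.0 and 89.3% in HC (n = 11) and 33.3, 78.7 and 100% in HH (n = 6). FF had 80.0 and 100% in its 2 libraries. The ranges overlapped in all 6 genotypes. A permutation test of the spread of genotype means, within sex and batch, gave p = 0.303 (adjusted p = 0.53 over the 14 tests on shares and lengths). Males had 71.2% ± 21.8 (n = 20) and females 75.3% ± 14.4 (n = 25), and the difference within genotype and batch was -1.52 points (permutation p = 0.8, adjusted p = 0.965).

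At their 3′ ends the members stopped mainly in the T arm, at positions 45 to 60, with 87.3% of reads (Wilson 85.3 to 89.1). The rule sets part of this share, since 76 of the 91 member sequences end there. The T loop held the ends of 53.6% and the 5′ strand of the T stem those of 31.9%, while 12.3% ended in the variable region. Position 55, the last base of the T loop, was the most frequent end with 150 reads. It was followed by position 54 with 136, 48 with 123, 53 with 120, 46 with 105, 44 with 95 and 52 with 91. Past the T loop reads became rare, with 13 at position 56 and 1.83% of the member reads at 56 to 60 together. The length limit allows ends up to position 59, so ends in the acceptor stem or the CCA end lie outside the rule.

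The ends that a start can have are bounded by the length limit. The earliest ends are 39 from 25, 41 from 27 and 45 from 31, so every member from 31 ends in the T arm. A fragment from 25 can end at 53 at the latest, one from 27 at 55 and one from 31 at 59. Ends 54 and 55 thus came from later starts, and the fall after position 55 was examined in starts 28 to 31, for which end 56 lies within the limit. In the 29 libraries with at least 5 such reads, end 55 made 32.5% ± 30.4 and end 56 made 4.09% ± 11.6 of them (mean ± SD, n = 29). The difference was 28.4 points, with end 55 above end 56 in 20 libraries and below it in 3. Longer fragments with starts 25 to 31, at 30 nt or more, ended at position 54 in 16 reads, 55 in 24, 56 in 45 and 57 in 26, together 111 of 163 reads. At 30 nt or more, end 55 is open only to starts 25 and 26, while end 56 is also open to start 27. The larger count at 56 in the longer fragments is therefore shaped by the length cut. Without a length cut, starts 25 to 31 had 174 reads ending at 55 and 58 ending at 56.

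Within the variable region and the T stem, position 44 exceeded position 43 by 8.40 points (9.33% ± 14.1 against 0.929% ± 2.94, n = 45, higher in 27 libraries and lower in 3). Position 44 is the last base before the T stem. Position 48 exceeded position 47 by 6.48 points (9.96% ± 15.3 against 3.49% ± 5.30, n = 45, higher in 21 and lower in 9). Within batch 2 this difference was 4.08 points (n = 29). End 48 exceeded end 49 by 4.97 points, and within batch 2 by 0.902 points. These pairs of ends were picked from the profile of the same libraries, so no test is given.

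The leading ends are given for each start, within the limits above and with no test. From 25, the most frequent ends were 52 (64 reads), 44 (62) and 46 (55). From 27 they were 48 (56 reads) and 53 (50), and from 28 end 48 alone took 23 of 78 reads (29.5%). From 30, ends 55 (20 reads) and 48 (19) were nearly equal. From 31 ends were the most concentrated, since 66 of 169 reads ended at 55 and 58 at 54, together 73.4% (124 reads), or 75.9% without HC male replicate 3. Of the 39 libraries with reads from 31, 28 had a read ending at 54 or 55. The 2 ends took 59 of 76 such reads in HC, 32 of 38 in CF, 19 of 21 in HH, 7 of 13 in CH, 6 of 20 in CC and 1 of 1 in FF.

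Median lengths ran from 21.0 nt at start 30 to 25.5 nt at start 26, within the limits of 15 and 29 nt that the rule sets for every start. The most frequent length over all members was 25 nt (149 reads), followed by 22 nt (122) and 28 nt (119). Lengths of 20 to 29 nt made 86.3% of the reads. At the lower limit, 15 nt, there were 6 reads of 3 sequences, and 14 nt had 0. At the upper limit, 29 nt, there were 84 reads, and fragments of 30 nt with the same starts had 36.

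Mean member length per library was 22.9 ± 1.52 nt in CC (n = 7), 23.7 ± 1.42 in CF (n = 11), 22.2 ± 1.44 in CH (n = 8), 25.3 ± 2.40 in FF (n = 2), 23.7 ± 0.963 in HC (n = 11) and 24.4 ± 0.670 in HH (n = 6). The spread of genotype means gave permutation p = 0.0518 (adjusted p = 0.266). Fragments from 24 were shorter than the members of the same library, with 22.6 ± 2.02 against 23.4 ± 1.45 nt (n = 38 libraries, shorter in 29 and longer in 9). The difference of -0.884 nt gave permutation p = 0.037, and without HC male replicate 3 it was -0.823 nt with permutation p = 0.0547. Within batch 2 it was -1.32 nt (permutation p = 0.0014, n = 24), and with at least 5 reads of each class -0.996 nt (permutation p = 0.0244, n = 26). Counting every library with at least 1 read of each class, it was -0.150 nt (permutation p = 0.752, n = 53). The limit of 29 nt bears on this comparison. A fragment from 24 can end at 52 at the latest, so any that end at 53 to 55 are too long to be counted. Among members, ends 53 to 55 held 33.7% of the reads. How much of the length difference comes from the limit was not tested.

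The favored starts had different first bases. Start 25 has an A at its first base and follows an A, start 27 has a G and follows a T, and start 31 has a T and follows a T. The favored ends were also of several kinds, with T at 44, 53 and 55, A at 46 and 52, and G at 48 and 54. By structure, 78.8% of member reads held the whole anticodon loop. The stretch complementary to the R4 probe of the study's northern blots (positions 29 to 48) was held whole by 50.3% of them (Wilson 47.5 to 53.1), and by 48.6% without HC male replicate 3.

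Reads of the members were shared among many sequences. The 8 members with the most reads held 452 of the 1205 reads (37.5%), and the 35 members with at least 10 reads held 985. There were 15 members with a single read, 19 found in 1 library, and 39 absent from HC male replicate 3. No member was found in more than 21 libraries.

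The fragment from 31 to 55, which begins with the anticodon, was the most frequent and the most widely found, with 66 reads in 21 libraries, of which 5 were in HC male replicate 3. In CF it ranged from 0 to 6 reads per library (median 2), with reads in 7 of 12 libraries. In HC it ranged from 0 to 6 (median 1), with reads in 8 of 13. In CC, CH, FF and HH the median was 0, and it was found in 1, 2, 1 and 2 libraries. CF and HC thus held 22 and 29 of its reads, with overlapping ranges in all genotypes. These counts are not scaled to depth, and CF had 684 *mt-TR* reads in all while HC had 2420. Over all libraries the fragment made 1.18% of *mt-TR* reads. Its partner from 31 to 54 had 58 reads in 14 libraries, with 14 in HC male replicate 1 and 10 in HH male replicate 6.

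The fragment from 25 to 52, which keeps most of the anticodon stem and ends within the T loop, had 64 reads, spread over 17 libraries. CF female replicate 1 held 11 of them, HC male replicate 3 held 9 and HC female replicate 5 held 7, while FF had 0. The fragment from 25 to 44, which stops just before the T arm, had 62 reads, and 16 libraries contained it. HC male replicate 3 had 18 of these, CH male replicate 6 held 9 and HC male replicate 5 held 7, and FF again had 0. Both fragments had a median of 0 reads in every genotype, except 1 for the fragment from 25 to 52 in HC.

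Among fragments from 27, the one ending at 48 had 56 reads in 19 libraries, with 14 in HC male replicate 3 and 10 in CH female replicate 5. The one ending at 53 had 50 reads in 16 libraries and the one ending at 54 had 41 in 13 libraries. HC male replicate 3 held 16 and 21 of their reads, so the last of these had 20 reads in the other libraries. FF male replicate 1 had 5 reads of the fragment from 27 to 53 and no other member. Of the remaining starts, the leading members had 23 reads in 11 libraries (28 to 48), 20 in 6 (30 to 55), 19 in 7 (29 to 55) and 9 in 6 (26 to 51).

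The share of *mt-TR* reads that were members was compared between genotypes to ask whether the mtDNA or the nuclear genome moves with the amount of these fragments, relative to all *mt-TR* fragments of a library. Libraries with at least 10 *mt-TR* reads were used (61 libraries, 3 of them with no member read). The lowest, median and highest shares were 7.69, 18.9 and 63.6% in CC (n = 10), 12.1, 20.4 and 50% in CF (n = 12), 0, 11.6 and 66.7% in CH (n = 12), 0, 7.42 and 55.6% in FF (n = 8), 17.5, 26.6 and 51.5% in HC (n = 11) and 16.0, 20.9 and 33.3% in HH (n = 8). HC and HH had the highest lower bounds, and the ranges of all genotypes overlapped. Means were 24.1% ± 15.6 in CC, 25.5% ± 13.0 in CF, 18.8% ± 18.5 in CH, 12.6% ± 18.2 in FF, 30.7% ± 12.2 in HC and 22.6% ± 5.67 in HH (SD). The spread of genotype means did not pass (permutation p = 0.0917, adjusted p = 0.266), and neither did any pairwise comparison at the level set by the 14 tests.

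The comparisons were made within sex and batch, as two-sided exact permutation tests. Only strata holding both genotypes enter a difference, so CH against CC used 6 and 5 libraries, all male, CF against CC 11 and 10, HC against HH 8 and 7, HC against CC 8 and 10, CH against HH 9 and 4, and CF against FF 12 and 8. On C57BL/6J nuclei, CH was 13.6 points lower than CC (-13.6, exact p = 0.0905, adjusted p = 0.266) and CF was 1.55 points higher than CC (exact p = 0.829, adjusted p = 0.965). On C3H/HeN nuclei, HC was 13.4 points higher than HH (exact p = 0.0369, adjusted p = 0.266). With the mtDNA held the same, HC was 10.1 points higher than CC (exact p = 0.103), CH differed from HH by -1.63 points (exact p = 0.917), and CF was 11.0 points higher than FF (exact p = 0.114), with adjusted p-values of 0.266, 0.965 and 0.266. Some other settings moved some of these values by over 1.5 times, while others left them close to the main value. HC against HH was 4.27 points with at least 1 read per library (exact p = 0.741) and 7.61 points with a replicate block (exact p = 0.25). CH against CC was -6.89 points without CC male replicate 6 (7 of 11 reads members, exact p = 0.257) and -5.25 points without regard to batch (exact p = 0.503). Within batch 2 alone the difference of HC and HH was 12.5 points (exact p = 0.111) and that of CF and FF 10.7 points (exact p = 0.292). FF female replicate 5, where 10 of 18 reads were members, moved CF against FF across the threshold, since without that library CF was 17.4 points higher (exact p = 0.00265, adjusted p = 0.037). HC against HH without HH male replicate 3 was 19.1 points (exact p = 0.00476, adjusted p = 0.0667).

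Batches, as numbered in the labels, differed in which genotypes they held. Library names divide batch 2 further by prefix, and the prefixes followed genotype. In batch 2, males of CH and HC shared a prefix that no male of CC or HH had, and females of CF and FF had different prefixes. What a prefix stands for is not stated, and it was not a stratum or covariate. In those comparisons it cannot be told apart from genotype within batch 2. Batch 1 had only females of CH, with member shares of 6.28 to 10.1% in 3 libraries, and of HC, with 17.5 to 21.4% in 3 libraries. Mean shares were 13.9% ± 6.57 in batch 1 (n = 6), 24.1% ± 13.1 in batch 2 (n = 39) and 23.0% ± 20.6 in batch 3 (n = 16). Males had a mean share of 23.6% ± 14.0 (n = 28) and females 22.1% ± 16.1 (n = 33), and the difference within genotype and batch was 0.190 points (permutation p = 0.965, adjusted p = 0.965). The share of member reads ending in the T arm was 82.9% ± 19.0 in males (n = 20) and 89.4% ± 10.2 in females (n = 25), a difference of -8.77 points within genotype and batch (permutation p = 0.134, adjusted p = 0.269). Over the 6 genotypes, the spread in that share gave permutation p = 0.409 (adjusted p = 0.572). Mean member length was 0.493 nt greater in males than in females within genotype and batch (permutation p = 0.344, adjusted p = 0.534). HC was 21.8 points above CC in females and -1.78 points from it in males, a difference of effects of -23.6 points (permutation p = 0.0495, adjusted p = 0.346 over 7 such tests).

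Single sequences were then tested with edgeR on the whole table. Only 34 of the 91 members passed the filter of at least 10 reads in all and reads in at least 5 libraries, among 142 sequences in all. At an adjusted p under 0.05 (Benjamini-Hochberg, over all sequences tested), edgeR's quasi-likelihood test called 1 sequence in CH against CC (0.704% of those tested), 2 in CH against HH (1.41%), 3 in CF against FF (2.11%) and 0 in CF against CC, HC against HH, HC against CC and male against female (0% each). Of the members tested, 1 was called in CF against FF and 0 in the other comparisons. At an unadjusted p under 0.05, members numbered 5 of 34 in CH against CC (beside 23 of all 142 sequences), 4 in CF against CC (beside 21), 6 in HC against HH (beside 18), 7 in HC against CC (beside 17), 5 in CH against HH (beside 30), 1 in CF against FF (beside 5) and 1 between the sexes (beside 3). DESeq2 called 0 members in all 7 comparisons, with 0 at an unadjusted p under 0.05.

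The called member was the fragment from 25 to 46, which was lower in CF than in FF (log2 fold change -3.31, edgeR adjusted p = 0.0358, averaged over the sexes). In FF it had 5 reads in FF female replicate 5 (of 18 *mt-TR* reads), 2 in FF male replicate 4 (of 24), 1 in FF male replicate 6 (of 37) and 0 in the other 8 libraries with reads. In CF it had 3 reads in CF male replicate 2, 1 in CF male replicate 1 and 0 in the other 10 libraries. Pooled, it made 4.52% of *mt-TR* reads in FF (Wilson 2.31 to 8.66) and 0.585% in CF (0.228 to 1.49), and between 0.694 and 1.11% in the other genotypes. The CF females all had 0, so the size of the fitted change depends on the prior count. The call rested on few libraries. Without FF female replicate 5 the log2 fold change was -0.71 (edgeR adjusted p = 1), and leaving out each of the 23 CF and FF libraries with reads in turn kept the call in 13 fits. With DESeq2, with TMM factors, with a replicate block (edgeR adjusted p = 0.214) and within batch 2 it was not called. The call stayed without the filter (edgeR adjusted p = 0.0404), without HC male replicate 3 (edgeR adjusted p = 0.0312) and without the batch covariate (edgeR adjusted p = 0.0488).

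Library scaling changed which sequences were called. With library totals, CF against FF gave 0 higher and 3 lower calls, and with TMM factors 17 higher and 0 lower, of which 4 were members (27 to 48, 25 to 53, 29 to 55 and 31 to 55, log2 fold changes of 2.39 to 3.07). With library totals these 4 members were also higher in CF (log2 fold changes of 2.41 to 3.29) but were not called. CH against HH gave 2 higher and 0 lower calls with library totals, and 1 higher and 6 lower with TMM factors, 2 of the latter being members (25 to 53 and 27 to 50). The median log2 fold change of the 34 members was -0.12 in CH against CC, beside -0.27 for all sequences tested. It was 0.03 beside -0.07 in CF against CC, 0.33 beside -0.14 in HC against HH and 0.43 beside 0.08 in HC against CC. It was -0.64 beside -0.64 in CH against HH, 0.97 beside 0.79 in CF against FF and 0.13 beside 0.11 between the sexes. TMM factors moved the median of all sequences by -0.33 in CH against CC, 0.40 in HC against HH, 0.18 in HC against CC and -0.15 in CH against HH. In CF against FF it moved by 0.07, although a different set of sequences was called there. With TMM factors the members' median in CF against CC was -0.13.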

How the data were processed

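The deposited table gives raw counts per library for every distinct *mt-TR* sequence, which the authors did not normalize. Per the submitters' processing notes, FastQC 0.12.1, UMI-tools 1.1.6, cutadapt 5.0, BWA 0.7.18 and Bowtie 1.3.1 and the build mm10 were used. The methods describe a lower length limit of 16 nt, deduplication by molecular identifiers, mapping to the *mt-TR* sequence of each mtDNA type without gaps or mismatches, and removal of sequences that map elsewhere. They do not list these steps by experiment, and the table holds sequences of 15 nt. Intervals cover counting error only. Lung is named in the title and labels and liver in the design text. Lung is used here.

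The labels gave genotype, sex, replicate number and batch. The members and the tests were chosen with earlier results of these data known. Sequences were placed by exact match on mature *mt-TR* of C mtDNA (GENCODE gene of GRCm38 plus CCA). Each library gave 1 value per measure. Shares of *mt-TR* reads used libraries with at least 10 *mt-TR* reads, and shares and mean lengths of member reads those with at least 5 member reads. Libraries were compared by two-sided permutation tests within sex and batch (within genotype and batch for the sexes), exact up to 1000000 arrangements and otherwise with 100000 resamples, with Benjamini-Hochberg adjustment over 14 tests. Lengths of fragments from 24 and of members were compared by a sign-flip permutation test within libraries with at least 3 reads of each. Neighboring starts and ends are described without a test, since they were picked from the profile of the same libraries. Counts of all sequences with at least 10 reads and at least 5 libraries were fitted with edgeR 4.0.16 (R 4.3.3) in 12 groups of genotype and sex, with batch as a covariate and library totals as normalization. DESeq2 1.42.0, TMM factors, no filter, no batch covariate, batch 2 alone, other read minimums, lengths of 16 to 29 nt, a replicate block and leaving out single libraries were alternatives. Code was tested on simulated data. Named members were the 8 with the most reads, the leading member of each start and each member called by edgeR, and others were named only where an alternative called them. Python 3.11.15, numpy 2.4.6, pandas 2.3.3 and scipy 1.17.1 were used for the rest.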

Additional observations from a re-analysis of the deposited data

Results flagged for a closer look

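The highest or lowest library of a group of one genotype and sex was set against the others by Dixon's ratio. This was done for 44 combinations of a measure with a group of 4 to 10 libraries. The same libraries recur under several measures, and counts of member reads also follow the *mt-TR* reads of a library. Libraries lay apart in 8 cases, where chance gives about 2.2 for normally distributed values. Member reads were 28 in CH male replicate 1 (next 11 in its group), 10 in FF female replicate 5 (next 1), 51 in HC female replicate 3 (next 28) and 258 in HC male replicate 3 (next 37). The member share of *mt-TR* reads was 66.7% in CH female replicate 5 (14 of 21 reads, next 13.0%) and 55.6% in FF female replicate 5 (10 of 18 reads, next 7.69%). All 10 member reads of CF female replicate 2 began in the anticodon stem (100%, next 69.2%). In HC male replicate 3, 86.8% of member reads ended in the T arm, while the nearest of the other 3 HC male libraries had 76.5%. None of the 7 tests of a difference in effect between sexes or backgrounds passed after adjustment.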

How the results depend on the processing

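None of the 14 tests on shares and lengths passed an adjusted p of 0.05 under other read minimums, lengths, strata or batches, or with a replicate block (lowest adjusted p 0.181 for member shares, 0.202 for starts, ends and lengths). With at least 20 reads per library, CH against HH was 11.1 points and male against female -1.70 points, both in the opposite direction and not passing. Each library was also left out in turn, a choice made after seeing the data, with the other 13 p-values kept in the adjustment. The difference then ranged from -16.8 to -6.89 points in CH against CC, from 10.6 to 19.1 in HC against HH, from 7.20 to 14.1 in HC against CC, from -1.55 to 9.29 in CF against CC, from -7.31 to 5.80 in CH against HH and from 8.09 to 17.4 in CF against FF, where the fit without FF female replicate 5 was the 1 of all 124 that passed. HC against CC was 3.23 points with at least 1 read per library and, with a replicate block, CF against FF was 5.92 and CH against CC -4.47. The 3 that turned the direction of CF against CC left out CF female replicate 1 (-1.55), CF male replicate 3 (-0.810) or CC male replicate 2 (-0.0862), and those of CH against HH left out HH male replicate 3 (5.80), CH female replicate 6 (1.70) or CH male replicate 5 (1.03). The length difference from start 24 was -0.150 nt with at least 1 read of each class and -0.823 nt without HC male replicate 3, and -1.32 nt within batch 2. End 48 against 47 was 4.08 points within batch 2. The cause was not tested for any of these.

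The number of sequences called by edgeR changed with most settings. In CH against CC it was 0 with TMM factors, with DESeq2, without the filter, within batch 2 and with a replicate block, and 2 without the batch covariate. In CH against HH it was 7 with TMM factors, 0 with DESeq2, without the filter and within batch 2, 4 without the batch covariate and 8 with a replicate block. In CF against FF it was 17 with TMM factors and 0 with DESeq2, and in CF against CC 2 with DESeq2. In HC against HH it was 1 without HC male replicate 3 and 1 with a replicate block. Same-numbered libraries did not deviate together on average (mean correlation -0.0579 to 0.0247 over the 7 comparisons), with single pairs from -0.282 to 0.322. With so few reads per library, this cannot tell whether replicate numbers pair them. With the replicate block 1 member, from 25 to 53, was called in CH against HH (edgeR adjusted p = 0.0359). Few reads per library limit all of these values.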
